A study of Rattus norvegicus with 23 samples.

Results

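The transcripts described here are 37 genes that mark the endothelial cells of brain vessels or take part in the blood-brain barrier. The list of names was chosen with earlier results of these data known. Counts among the 37 beside shares of all genes are therefore a description and not a test of the list. All 37 were found among the 20301 genes in the deposited expression table. They were followed across 23 RNA-sequencing samples labelled as microglia from the brains of Wistar rat pups operated at postnatal day 7. Sham pups (n = 6) had a neck incision only and no injection is described for them, whereas LPS pups (n = 5) received lipopolysaccharide, a bacterial cell wall component, at 0.1 mg/kg into the abdomen 4 h before the same sham surgery. NaCl/HI pups (n = 6) received saline and LPS/HI pups (n = 6) received LPS before hypoxia-ischemia (HI), which is ligation of the left common carotid artery followed by 50 min in 8% oxygen. Cells were taken 24 h later by magnetic sorting on CD11b/c, from the entire brain in Sham and LPS and from ipsilateral hemispheres, 2 pooled per sample, in NaCl/HI and LPS/HI, from pups of both sexes. NaCl/HI and LPS/HI thus differ from the 2 other groups in tissue as well as in treatment, and HI and tissue cannot be told apart.

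Endothelial cells line blood vessels, and those of the brain are sealed to each other by junctions, carry few vesicles and move nutrients and drugs through dedicated transporters, which together form the blood-brain barrier. Vascular endothelial growth factor (VEGF) receptors, the angiopoietin receptor Tek with its relative Tie1, and apelin with its receptor guide the growth and quiescence of these vessels, while ETS and SOX family transcription factors hold the endothelial identity. Microglia are brain macrophages and are not known to express most of these genes, and the sort on CD11b/c does not select endothelial cells. In bulk RNA, fewer endothelial cells in a sample and less of a transcript per endothelial cell cannot be told apart.

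To show the DNA next to which these transcripts start, the promoters of Flt1, Akap12 and Rhoj are given, Flt1 and Akap12 because they passed the test in several comparisons and Rhoj because it varied almost in parallel with Mcam. The sequences are the 250 bases before the gene start in RefSeq on GRCr8, 5′ to 3′ on the + strand, at chr12:12333180-12333429 for Flt1, chr1:43135265-43135514 for Akap12 and chr6:99771133-99771382 for Rhoj. GRCr8 is a later build than the mRatBN7.2 annotation used for the expression values. Capitals mark the ETS core GGAAGT and the hypoxia response element cores ACGTG and GCGTG, read on both strands.
Flt1: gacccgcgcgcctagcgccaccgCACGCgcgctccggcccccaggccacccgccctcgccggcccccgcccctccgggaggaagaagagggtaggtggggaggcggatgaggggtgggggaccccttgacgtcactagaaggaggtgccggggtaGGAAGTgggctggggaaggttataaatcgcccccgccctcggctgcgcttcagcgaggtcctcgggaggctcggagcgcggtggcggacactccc
Akap12: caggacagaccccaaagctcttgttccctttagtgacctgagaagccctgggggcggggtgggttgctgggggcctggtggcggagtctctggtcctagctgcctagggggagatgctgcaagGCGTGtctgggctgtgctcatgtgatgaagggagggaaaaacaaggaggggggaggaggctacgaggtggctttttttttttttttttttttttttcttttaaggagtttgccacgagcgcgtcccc
Rhoj: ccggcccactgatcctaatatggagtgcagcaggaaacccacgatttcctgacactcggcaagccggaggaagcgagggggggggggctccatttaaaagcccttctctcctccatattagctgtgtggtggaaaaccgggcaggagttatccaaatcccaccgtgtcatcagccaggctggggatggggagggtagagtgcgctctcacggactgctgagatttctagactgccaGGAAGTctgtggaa
In Flt1 a hypoxia response core on the reverse strand began 227 bases and an ETS core 95 bases before the start, in Akap12 a hypoxia response core began 127 bases before it, and in Rhoj an ETS core began 14 bases before it. Promoters were matched by symbol for 22 of the 37 genes. Within 250 bases before and 50 bases after the start, 8 of the 22 (36.36%) held the ETS core against 22.6% of 33469 rat promoters, and 11 of the 22 (50%) held a hypoxia response core against 41.6%. A match of letters is a description of the sequence and not a binding site.

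The deposited values are log2 values after a regularized log transformation that shrinks low values, so that a difference of 1 is a doubling, and they are not divided by transcript length, so levels are compared between groups and not between genes. All 37 genes were outside the 25% of genes with the lowest mean, and none shared its values with another gene. Of the 37, 35 (94.6%) had a mean above the median gene. The shares over all genes below thus include a larger part of genes with low values, and the effect of level on them was not tested. Of the 11 markers chosen for the presence of endothelial cells, 10 were measured, and their mean level was 10.91 ± 0.10 (SD, n = 6) in Sham, 10.74 ± 0.12 (n = 5) in LPS, 10.83 ± 0.05 (n = 6) in NaCl/HI and 10.96 ± 0.12 (n = 6) in LPS/HI. Endothelial transcripts were thus measured in every group of these CD11b/c isolates. Cldn5, the main claudin of barrier junctions, is the marker not analysed here. All 15 microglia markers were measured, with mean levels of 13.61 ± 0.10 in Sham, 13.50 ± 0.06 in LPS, 13.56 ± 0.07 in NaCl/HI and 13.56 ± 0.06 in LPS/HI. A few libraries stood at the edge of their group for most of the 37 genes: LPS/HI replicate 5 was the highest of its group in 31 genes, LPS replicate 1 in 30 and Sham replicate 3 in 25, while Sham replicate 1 was the lowest of its group in 25 and LPS replicate 5 in 22. For all genes the corresponding shares ran from 17.1% (LPS replicate 1) to 26.2% (LPS replicate 5).

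On average the 37 genes were lowest in LPS and highest in LPS/HI. Their mean level was 9.97 ± 0.10 (SD, n = 6) in Sham, 9.83 ± 0.11 (n = 5) in LPS, 9.88 ± 0.03 (n = 6) in NaCl/HI and 10.04 ± 0.12 (n = 6) in LPS/HI. LPS had the lowest group mean in 25 of the 37 genes, against 33.0% of all genes, and LPS/HI had the highest in 25 of the 37, against 19.8% of all genes. The sample ranges of the mean level overlapped between all 4 groups, from 9.83 to 10.12 in Sham, 9.70 to 9.99 in LPS, 9.83 to 9.92 in NaCl/HI and 9.90 to 10.23 in LPS/HI. In the tests below a gene rose or fell where limma gave an adjusted p under 0.05 after Benjamini-Hochberg adjustment over all 20301 genes, and 17 of the 37 genes (45.9%) did so in at least 1 of 7 comparisons, against 23.1% of all genes.

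**Figure D1:**
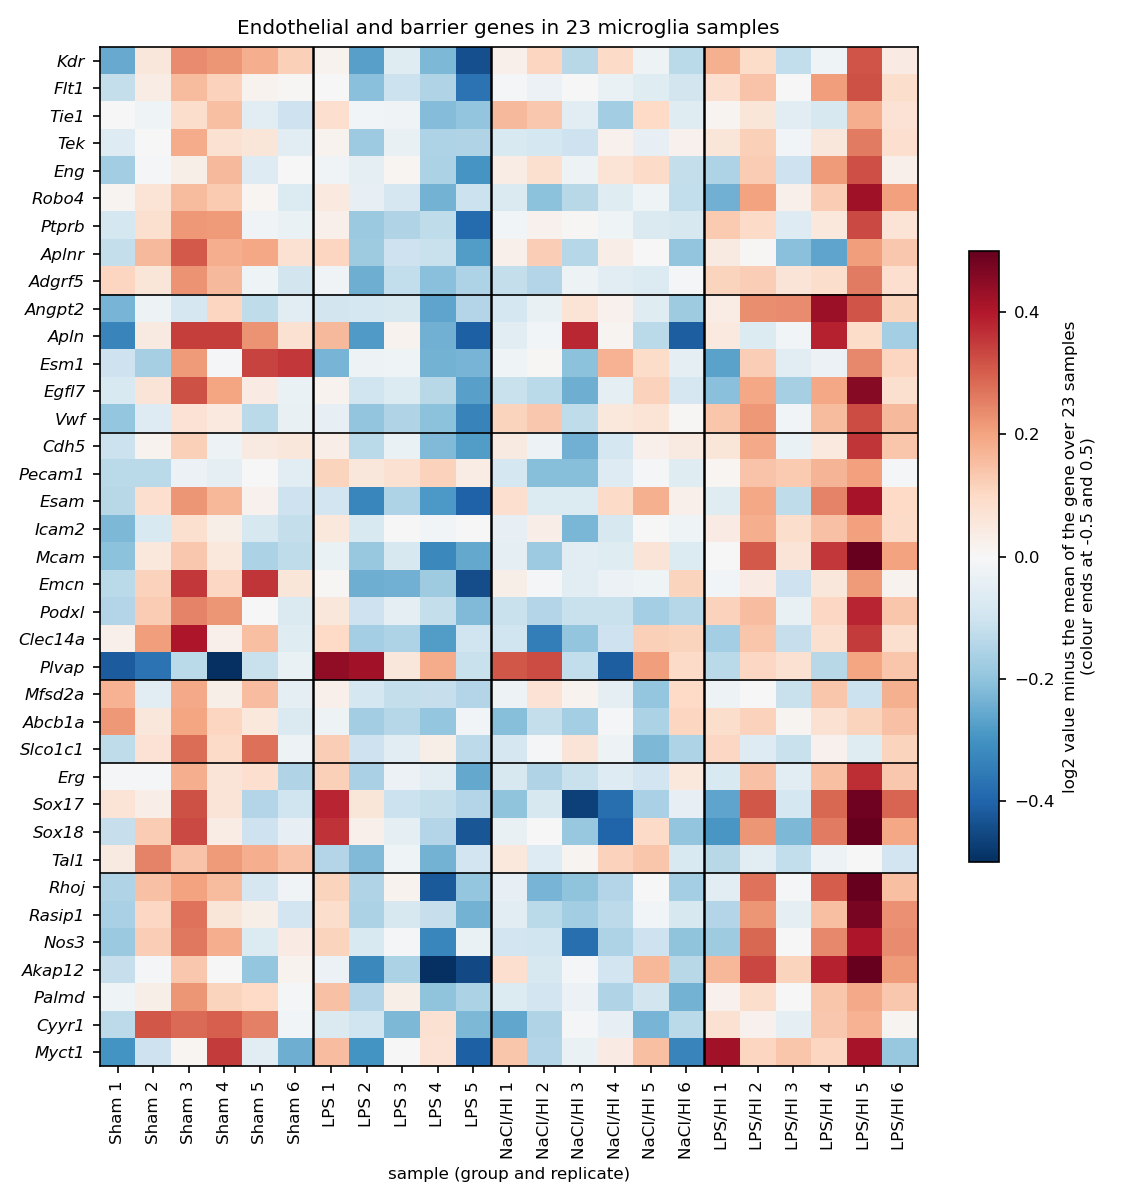
Deposited log2 value of each of the 37 genes (rows, ordered by role) in each of the 23 samples (columns, by group and replicate), as the difference from the mean of that gene over all samples. Red is higher and blue is lower, with the colour scale ending at -0.5 and 0.5. LPS has the lowest mean over the 37 genes (9.83) and LPS/HI the highest (10.04), and the column of LPS/HI replicate 5 has the highest mean of the 23 (10.23).

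The first question was what LPS did to these transcripts without HI. Against Sham, 10 of the 37 genes fell in LPS (Abcb1a, Adgrf5, Akap12, Cyyr1, Emcn, Esam, Flt1, Kdr, Ptprb and Tal1) and 2 rose (Pecam1 and Plvap). Over all genes 7.56% fell and 10.2% rose, so the share of falling genes was larger among the 37. Group means were lower in LPS for 34 of the 37, and the median difference was -0.14, against -0.01 over all genes. Within the libraries numbered 1 to 12 the median difference was -0.10, and within those numbered 13 to 23 it was -0.23. The count moved with single LPS and Sham libraries: 4 genes passed without LPS replicate 2, 5 without LPS replicate 4, 6 without LPS replicate 5 or Sham replicate 4, and 7 without Sham replicate 2 or 3, while 11.8% to 17.4% of all genes passed in these refits. When limma was fitted to these 2 groups alone, 5 of the 37 passed, beside 11.5% of all genes. Exact Wilcoxon tests called 4 of the 37, beside at least 2818 of all genes. Adgrf5, Emcn and Tal1 passed whichever library was left out, while the highest limma adjusted p of the other 9 genes ranged from 0.0561 to 0.128. Sham and LPS differ in the injection itself as well as in LPS, since no injection is described for Sham.

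Against Sham, LPS/HI showed 6 of the 37 genes higher (Akap12, Angpt2, Icam2, Mcam, Pecam1 and Vwf) and 1 lower (Tal1), while 5.3% of all genes rose and 3.48% fell. The median difference was 0.08 against -0.0024 over all genes, and group means were higher for 26 of the 37. The median was 0.03 without LPS/HI replicate 5 and 0.05 without Sham replicate 1 or 6. In the libraries numbered 1 to 12 the median difference was -0.03 with 15 genes higher and 22 lower, and in those numbered 13 to 23 it was 0.15 with 29 higher and 8 lower, so the direction of the median did not hold in both. The count fell to 2 when Sham replicate 1, or replicate 2, 4 or 5 of LPS/HI, was left out, to 3 without Sham replicate 5, and to 4 without Sham replicate 2 or 6, with 3.79% to 5.93% of all genes. With these 2 groups alone in the fit, 3 of the 37 and 5.04% of all genes passed. Angpt2 and Tal1 passed whichever library was left out, and the highest limma adjusted p of the other 5 genes ranged from 0.0661 to 0.0897.

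The contrast of LPS/HI with LPS asked what HI added to LPS. Here 7 of the 37 genes rose (Adgrf5, Akap12, Angpt2, Esam, Flt1, Mcam and Vwf) and 0 fell, against 1.22% of all genes higher and 0.719% lower. Group means were higher in LPS/HI for 36 of the 37 genes, with a median difference of 0.20 against 0.0016 over all genes. Within the libraries numbered 1 to 12 the median difference was 0.06, and within those numbered 13 to 23 it was 0.41. The count was 3, beside 0.399% of all genes, without LPS replicate 4. Akap12, Flt1 and Vwf passed whichever library was left out, and the highest limma adjusted p of the other 4 genes ranged from 0.0565 to 0.0925. When limma was fitted to these 2 groups alone, 0 of the 37 and 0 of all genes passed.

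Neither HI alone nor LPS on top of HI gave a call among the 37. For NaCl/HI against Sham, 0 rose and 0 fell in limma, beside 0.00985% of all genes higher and 0% lower, and 11 of the 37 genes had an unadjusted p under 0.05 against 14.8% of all genes. The median difference was -0.11, with -0.09 in the libraries numbered 1 to 12 and -0.07 in the others. For LPS/HI against NaCl/HI, 0 rose and 0 fell in limma, beside 0.153% of all genes higher and 0.0493% lower, while 20 of the 37 had an unadjusted p under 0.05 against 10.6% of all genes. Exact Wilcoxon rank-sum tests called 0 of the 37 in both comparisons, but with 6 against 6 samples their smallest p is 0.00216, at which at least 879 genes would have to pass together and 206 and 271 reached it, so this count carries little information on the 37. For 35 of the 37 genes the LPS/HI mean nevertheless exceeded that of NaCl/HI, with a median difference of 0.18, and of 0.12 and 0.19 within the 2 series of library numbers. Without LPS/HI replicate 1, 5 of the 37 and 0.66% of all genes passed in this comparison. Without NaCl/HI replicate 4, 2 of the 37 and 2.74% of all genes passed in NaCl/HI against Sham.

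LPS and NaCl/HI differed in 5 of the 37 genes. Pecam1 was higher in LPS, and Akap12, Esam, Tal1 and Vwf were lower, where 5.32% of all genes rose and 3.66% fell. The median difference was -0.07, and it was -0.0044 within the libraries numbered 1 to 12 and -0.14 within the others. Leaving out replicate 2 or 4 of LPS, or 1 or 5 of NaCl/HI, each left 1 call. Leaving out replicate 5 of LPS or 4 of NaCl/HI left 2, and leaving out replicate 2 of NaCl/HI left 3, with 5.3% to 8.02% of all genes in these refits. Pecam1 passed whichever library was left out, and the highest limma adjusted p of the other 4 genes ranged from 0.093 to 0.149. When limma was fitted to these 2 groups alone, none of the 5 calls remained (0 of the 37, beside 494 of all genes). The median was -0.10, -0.04 and -0.04 without LPS replicate 1, 2 and 5.

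Whether the LPS effect differed with and without HI was tested by the interaction, which is LPS/HI minus NaCl/HI less LPS minus Sham. Abcb1a, Adgrf5, Akap12, Cyyr1, Flt1 and Podxl passed this test with a positive sign, and 0 of the 37 passed with a negative one, beside 0.365% and 0.719% of all genes. The interaction was positive in 36 of the 37 genes, with a median of 0.35 against 0.01 over all genes, and only Plvap was negative at -0.50 (adjusted p = 0.191 by limma). The median was 0.20 within the libraries numbered 1 to 12 and 0.50 within the others. Tissue differs between the groups with and without HI, and no injection is described for Sham. The parts of tissue and injection in the interaction cannot be told apart from those of HI and LPS. Among the 6 genes, Adgrf5 passed with each of the 23 libraries left out in turn, and the highest limma adjusted p of the other 5 ranged from 0.0724 to 0.0935. The count was 1 when replicate 2 or 4 of Sham, of LPS or of LPS/HI, or 1 or 2 of NaCl/HI, was left out. It was 2 with replicate 5 or 6 of either HI group left out, and 3 with Sham replicate 3 left out, while 0.158% to 0.69% of all genes passed.

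**Figure D2:**
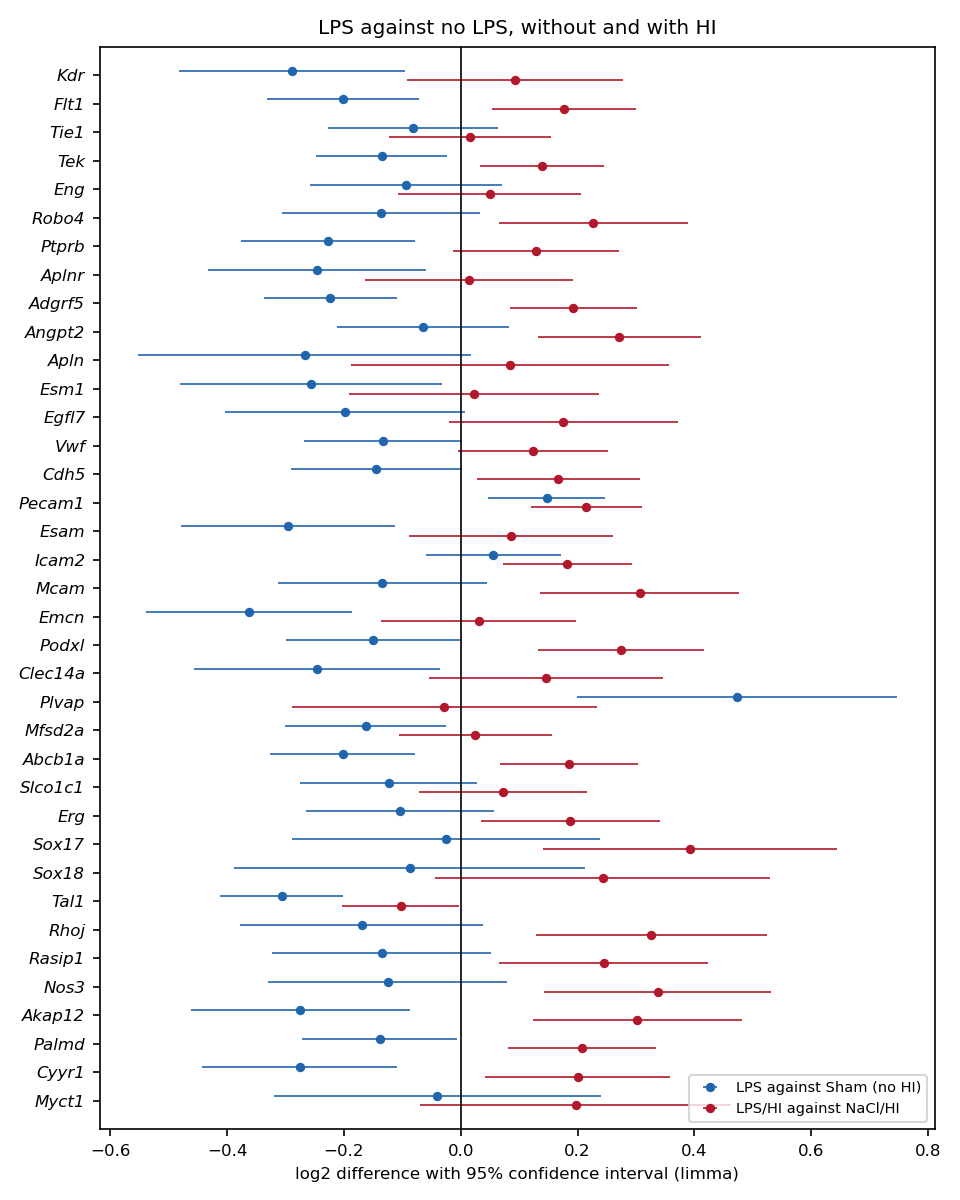
Log2 difference of LPS against Sham (blue) and of LPS/HI against NaCl/HI (red) for each of the 37 genes, with 95% confidence intervals from limma. The blue points lie left of 0 in 34 genes and the red points right of 0 in 35 genes, and Plvap is the gene whose blue point lies farthest to the right.

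Among the 9 growth factor and guidance receptors, LPS was below Sham in all group means, and 4 passed. Kdr, the main signalling receptor for VEGF, stood at 10.96, 11.13, 11.18, 11.34 and 11.42 in the LPS samples. Its lowest, median and highest levels were 11.15, 11.55 and 11.64 in Sham, 11.26, 11.40 and 11.51 in NaCl/HI and 11.28, 11.47 and 11.72 in LPS/HI. All 5 LPS samples were under the Sham mean, but the low Sham replicate 1 made the groups overlap. Kdr fell by 0.29 (SE 0.09) in LPS against Sham (limma adjusted p = 0.0362), and the difference of LPS/HI from LPS, 0.28, did not pass (adjusted p = 0.129). Flt1, a VEGF receptor that also acts as a decoy, was at 11.08, 11.24, 11.30, 11.34 and 11.45 in LPS. Sham samples ran from 11.32 to 11.60 with a median of 11.47, those of NaCl/HI from 11.35 to 11.44 with a median of 11.41, and those of LPS/HI from 11.45 to 11.76 with a median of 11.56. The LPS/HI samples lay above all NaCl/HI samples and touched the LPS range only at its top. Flt1 fell by 0.20 (SE 0.06) in LPS against Sham (adjusted p = 0.0291) and in LPS/HI stood 0.31 (SE 0.06) above LPS (adjusted p = 0.015). Its interaction was 0.38 (SE 0.09, adjusted p = 0.0366). This interaction held with 9 of the 23 libraries left out in turn and was lost without a variance trend.

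Ptprb, a phosphatase that dampens Tek and VEGF receptor signalling, was at 11.56, 11.75, 11.79, 11.81 and 11.97 in LPS. The range was 11.85 to 12.16 in Sham (median 11.97), 11.86 to 11.96 in NaCl/HI (median 11.92) and 11.88 to 12.27 in LPS/HI (median 12.02). Only the highest LPS sample reached into the other groups. Ptprb fell by 0.23 (SE 0.07) in LPS against Sham (limma adjusted p = 0.0326), and LPS/HI against LPS, at 0.27, did not pass (adjusted p = 0.0544). Adgrf5, an adhesion receptor of capillary endothelium, was at 11.05, 11.08, 11.14, 11.17 and 11.28 in LPS. In Sham it lay between 11.20 and 11.52 (median 11.38), in NaCl/HI between 11.14 and 11.28 (median 11.23) and in LPS/HI between 11.36 and 11.55 (median 11.39). Both groups without HI overlapped, whereas LPS/HI lay wholly above LPS and above NaCl/HI. Adgrf5 fell by 0.22 (SE 0.05) in LPS against Sham (adjusted p = 0.00743) and in LPS/HI stood 0.27 (SE 0.05) above LPS (adjusted p = 0.0141). The interaction of Adgrf5 was 0.42 (SE 0.08, adjusted p = 0.0157), the smallest adjusted p of the interaction among the 37 genes. The called differences of these 4 receptors kept their sign within both series of library numbers, as for Adgrf5 in LPS against Sham, with -0.26 and -0.20. In LPS/HI against Sham, where none of the 4 passed, the sign differed between the series for Kdr, Ptprb and Adgrf5.

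The other 5 receptors were Tie1, Tek, Eng (a co-receptor for transforming growth factor beta and bone morphogenetic proteins), Robo4 (an endothelial guidance receptor) and Aplnr (the apelin receptor), and none passed in any comparison. Their differences in LPS against Sham ran from -0.25 in Aplnr (adjusted p = 0.0621) to -0.08 in Tie1 (adjusted p = 0.456). Tek, which binds the angiopoietins, stood 0.20 above LPS in LPS/HI (adjusted p = 0.0579) and had an interaction of 0.27 (SE 0.07, adjusted p = 0.0736). Tie1 differed by at most 0.10 in the 6 pairs of groups, with a 95% interval of -0.04 to 0.25 in LPS/HI against LPS.

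The 5 secreted factors did not pass in LPS against Sham, but 2 rose in LPS/HI. Angpt2, an angiopoietin that antagonizes Tek and is stored in endothelial granules, was at 7.91, 8.03, 8.08, 8.09 and 8.10 in LPS. Levels in the groups of 6 reached from 7.94 to 8.28 in Sham, 8.0 to 8.25 in NaCl/HI and 8.21 to 8.60 in LPS/HI, with medians of 8.11, 8.13 and 8.41. LPS/HI lay wholly above LPS, and only its lowest sample overlapped the top of Sham and NaCl/HI. Angpt2 was 0.30 (SE 0.07) higher in LPS/HI than in Sham (limma adjusted p = 0.0117) and 0.36 (SE 0.07) higher than in LPS (adjusted p = 0.012). Against NaCl/HI the difference was 0.27 (adjusted p = 0.0932). Within the libraries numbered 1 to 12 the difference from Sham was 0.28, and within the others 0.31. Vwf, the clotting factor stored with Angpt2, was at 12.63, 12.76, 12.77, 12.81 and 12.92 in LPS. Its lowest, median and highest levels were 12.77, 12.91 and 13.04 in Sham, 12.84, 13.02 and 13.10 in NaCl/HI and 12.95, 13.12 and 13.29 in LPS/HI. Every LPS/HI sample was above every LPS sample, and the other groups lay between them with overlap. Vwf was 0.22 (SE 0.06) higher in LPS/HI than in Sham (adjusted p = 0.0324), 0.35 (SE 0.06) higher than in LPS (adjusted p = 0.00911), and 0.23 (SE 0.06) lower in LPS than in NaCl/HI (adjusted p = 0.0313). Vwf is also made by megakaryocytes, whose 8 measured markers with those of platelets had a mean level of 5.72 ± 0.11 in Sham, 5.60 ± 0.07 in LPS, 5.66 ± 0.11 in NaCl/HI and 5.61 ± 0.09 in LPS/HI. Their part in the Vwf result was not tested. Apln (the ligand apelin), Esm1 (a proteoglycan of endothelial tip cells) and Egfl7 (a matrix protein of vessels) had means lower in LPS than in Sham by 0.20 to 0.27 and passed in no comparison.

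Junction, adhesion and glycocalyx proteins moved in both directions. Cdh5, the VE-cadherin of adherens junctions, was at 10.71, 10.77, 10.85, 10.95 and 11.02 in LPS. Sham samples ran from 10.88 to 11.11 with a median of 11.02, those of NaCl/HI from 10.75 to 11.03 with a median of 10.99, and those of LPS/HI from 10.95 to 11.34 with a median of 11.09. All groups overlapped, and Cdh5 passed in no comparison. The nearest was LPS/HI against LPS, at 0.25 (SE 0.07, limma adjusted p = 0.0606). Esam, an adhesion molecule of tight junctions, was at 10.28, 10.35, 10.39, 10.53 and 10.58 in LPS. The range was 10.54 to 10.90 in Sham (median 10.73), 10.61 to 10.86 in NaCl/HI (median 10.73) and 10.55 to 11.09 in LPS/HI (median 10.83). The LPS samples lay wholly under the NaCl/HI samples and met the other groups only at their low end. Esam fell by 0.30 (SE 0.09) in LPS against Sham (adjusted p = 0.0241), in LPS/HI stood 0.38 (SE 0.09) above LPS (adjusted p = 0.0294), and was 0.29 (SE 0.09) lower in LPS than in NaCl/HI (adjusted p = 0.0393). Within the libraries numbered 1 to 12 the difference of LPS/HI from LPS was 0.19, and within the others 0.60.

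Emcn, a mucin-like protein of capillaries and veins, was at 7.74, 7.94, 7.94, 8.0 and 8.19 in LPS. In Sham it lay between 8.05 and 8.54 (median 8.29), in NaCl/HI between 8.13 and 8.29 (median 8.16) and in LPS/HI between 8.08 and 8.39 (median 8.21). A single LPS sample reached the other groups. Emcn fell by 0.36 (SE 0.08) in LPS against Sham (limma adjusted p = 0.00528) and passed with each library left out in turn. Its difference was -0.27 within the libraries numbered 1 to 12 and -0.48 within the others. Mcam, an adhesion molecule of endothelial and mural cells, was at 10.26, 10.32, 10.39, 10.50 and 10.55 in LPS. Levels in the groups of 6 reached from 10.37 to 10.72 in Sham, 10.40 to 10.65 in NaCl/HI and 10.58 to 11.14 in LPS/HI, with medians of 10.54, 10.52 and 10.83. LPS/HI lay wholly above LPS and overlapped the top of Sham and NaCl/HI. Mcam was 0.29 (SE 0.08) higher in LPS/HI than in Sham (adjusted p = 0.0317) and 0.42 (SE 0.09) higher than in LPS (adjusted p = 0.0145). The rise over Sham was 0.13 within the libraries numbered 1 to 12 and 0.45 within the others.

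Pecam1, an adhesion molecule of endothelial junctions that leukocytes and platelets also carry, went the opposite way under LPS. It was at 12.39, 12.41, 12.43, 12.46 and 12.46 in LPS. Its lowest, median and highest levels were 12.21, 12.30 and 12.35 in Sham, 12.14, 12.27 and 12.34 in NaCl/HI and 12.34, 12.48 and 12.55 in LPS/HI. Every LPS sample was above every Sham and every NaCl/HI sample, and LPS and LPS/HI overlapped. Pecam1 was 0.15 (SE 0.05) higher in LPS than in Sham (limma adjusted p = 0.038), 0.17 (SE 0.05) higher in LPS/HI than in Sham (adjusted p = 0.0242) and 0.19 (SE 0.05) higher in LPS than in NaCl/HI (adjusted p = 0.0174). The difference of LPS/HI from NaCl/HI was 0.21 (adjusted p = 0.0575). Icam2, which endothelial cells and leukocytes share, was at 8.93, 9.0, 9.01, 9.01 and 9.06 in LPS. Sham samples ran from 8.79 to 9.09 with a median of 8.93, those of NaCl/HI from 8.78 to 9.04 with a median of 8.98, and those of LPS/HI from 9.05 to 9.21 with a median of 9.13. All LPS/HI samples were above all NaCl/HI samples and overlapped the top of Sham. Icam2 was 0.19 (SE 0.05) higher in LPS/HI than in Sham (adjusted p = 0.0301), with 0.18 within the libraries numbered 1 to 12 and 0.20 within the others.

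Plvap, which forms the diaphragms of leaky vessels and is low in a mature barrier, was the 1 gene of the 37 with its highest group mean in LPS. Its LPS samples were at 8.65, 8.81, 8.94, 9.18 and 9.20. The range was 8.18 to 8.72 in Sham (median 8.51), 8.35 to 9.08 in NaCl/HI (median 8.91) and 8.62 to 8.95 in LPS/HI (median 8.85). The lowest LPS sample overlapped the top of Sham, and NaCl/HI overlapped every other group. Plvap rose by 0.47 (SE 0.13) in LPS against Sham (limma adjusted p = 0.0167), with 0.61 within the libraries numbered 1 to 12 and 0.28 within the others, and the call was lost without LPS replicate 1 or 2. Vessels of the choroid plexus carry Plvap too, and the mean of 6 choroid plexus and ependyma markers was 9.41 ± 0.15 in Sham, 9.46 ± 0.25 in LPS, 9.42 ± 0.30 in NaCl/HI and 9.49 ± 0.11 in LPS/HI, a smaller spread between groups than within them. Their part in the Plvap result was not tested. Podxl, a sialomucin of the luminal surface, passed only the interaction, at 0.42 (SE 0.10, adjusted p = 0.0436), with 0.31 and 0.57 within the 2 series of library numbers. The call was lost with these series as a block (adjusted p = 0.0541 by limma) and without a variance trend, and it held with 7 of the 23 libraries left out in turn. Clec14a, a lectin-like surface protein of vessels, passed in no comparison and differed by -0.25 in LPS against Sham (adjusted p = 0.0958).

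**Figure D3:**
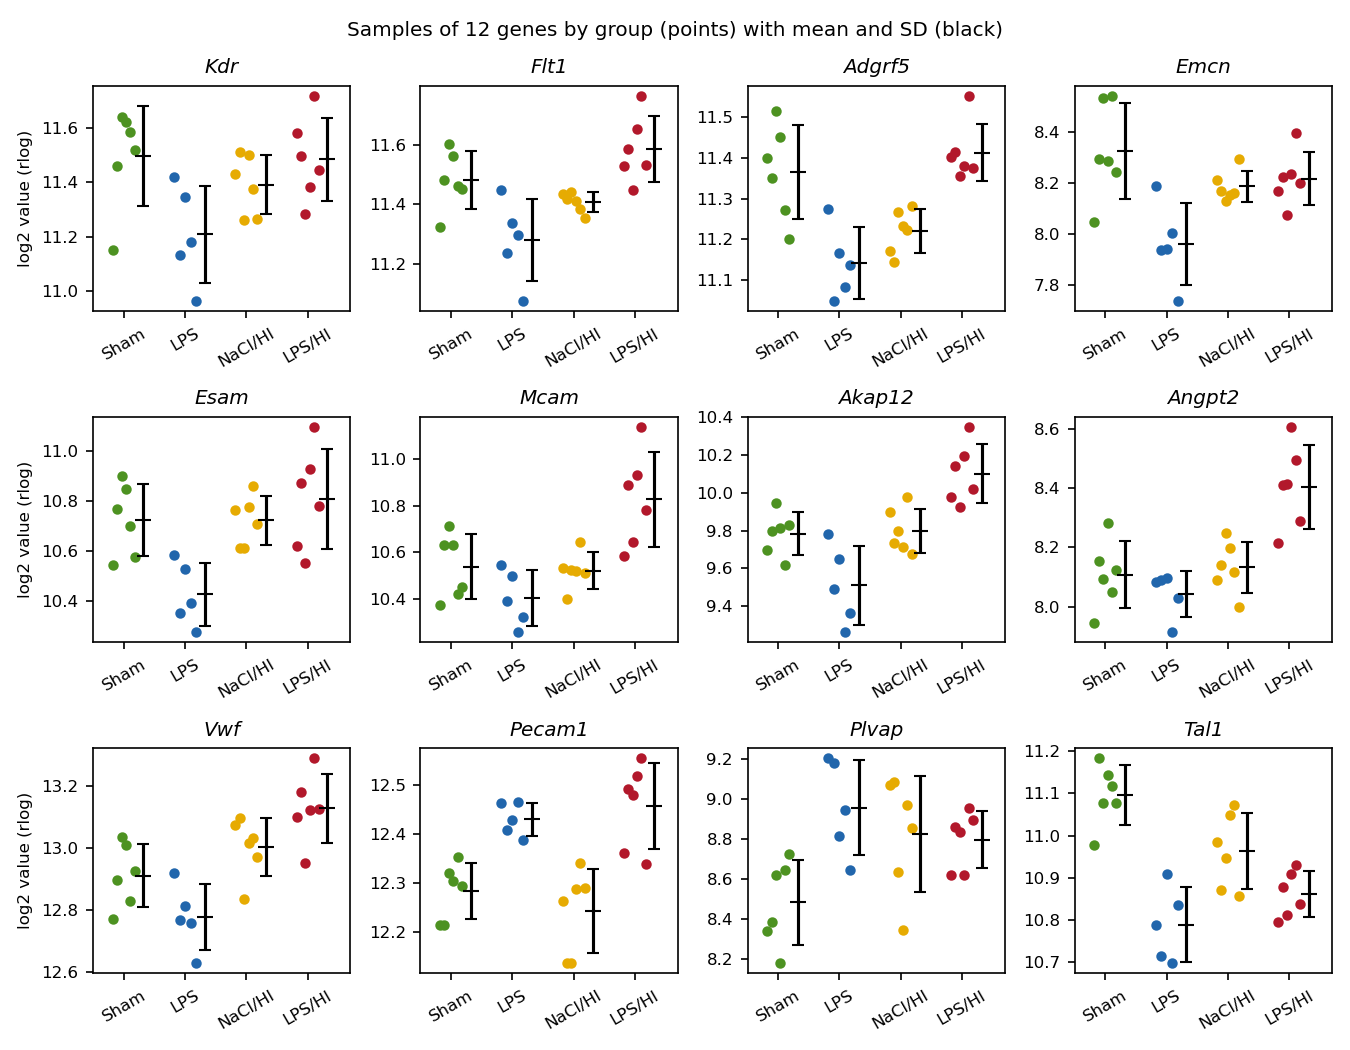
Deposited log2 value of 12 of the genes in every sample (points, coloured by group), with the group mean and SD in black. Each panel has its own axis, which does not start at 0. LPS points lie lowest for Esam and Emcn and highest for Plvap, and LPS/HI points lie above all LPS points for Adgrf5, Akap12, Angpt2, Mcam and Vwf.

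The 3 transporters of the barrier were lower in LPS than in Sham by 0.12 to 0.20, and 1 passed. Mfsd2a, which carries lipids inward and suppresses vesicle traffic, was at 9.37, 9.39, 9.40, 9.43 and 9.54 in LPS. In Sham it lay between 9.46 and 9.70 (median 9.60), in NaCl/HI between 9.32 and 9.61 (median 9.51) and in LPS/HI between 9.40 and 9.69 (median 9.50). All groups overlapped, and the difference of -0.16 in LPS against Sham did not pass (limma adjusted p = 0.0922). Abcb1a, one of the drug efflux pumps known as P-glycoprotein, was at 10.08, 10.10, 10.13, 10.25 and 10.26 in LPS. Levels in the groups of 6 reached from 10.20 to 10.49 in Sham, 10.06 to 10.38 in NaCl/HI and 10.28 to 10.42 in LPS/HI, with medians of 10.35, 10.13 and 10.37. LPS/HI lay wholly above LPS, while Sham overlapped every group. Abcb1a fell by 0.20 (SE 0.06) in LPS against Sham (adjusted p = 0.023) and had an interaction of 0.39 (SE 0.08, adjusted p = 0.0316). The interaction of Abcb1a held with 12 of the 23 libraries left out in turn. Abcb1b is a paralog of Abcb1a, and how reads that match both were assigned was not tested, so the values of Abcb1a are uncertain. Slco1c1, the thyroid hormone transporter of the barrier, passed in no comparison. It differed by -0.17 in NaCl/HI against Sham (adjusted p = 0.277) and by -0.12 in LPS against Sham (adjusted p = 0.254).

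Of the 4 transcription factors, Tal1 passed and Erg, Sox17 and Sox18 did not. Tal1, which acts in endothelial and blood progenitors and is also expressed by blood-derived lineages, was at 10.70, 10.71, 10.79, 10.84 and 10.91 in LPS. Its lowest, median and highest levels were 10.98, 11.10 and 11.18 in Sham, 10.86, 10.97 and 11.07 in NaCl/HI and 10.79, 10.86 and 10.93 in LPS/HI. Every Sham sample was above every LPS and every LPS/HI sample. Tal1 fell by 0.31 (SE 0.05) in LPS against Sham (limma adjusted p = 0.000236) and by 0.24 (SE 0.05) in LPS/HI against Sham (adjusted p = 0.0069), and both calls held with each library left out in turn. It was also 0.17 (SE 0.05) lower in LPS than in NaCl/HI (adjusted p = 0.0341). The fall from Sham to LPS was -0.28 within the libraries numbered 1 to 12 and -0.35 within the others. Erg, an ETS factor of vessel identity, and the SOX factors Sox17 and Sox18 had differences of -0.10, -0.03 and -0.09 in LPS against Sham. In LPS/HI against NaCl/HI their differences were 0.19, 0.39 and 0.24 (adjusted p = 0.347, 0.198 and 0.565).

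The last 7 genes are signalling proteins, scaffolds and membrane proteins. Akap12, a scaffold for protein kinase A that tightens the barrier and is also made by mural cells and fibroblasts, was at 9.26, 9.36, 9.49, 9.65 and 9.78 in LPS. Sham samples ran from 9.62 to 9.94 with a median of 9.81, those of NaCl/HI from 9.67 to 9.98 with a median of 9.77, and those of LPS/HI from 9.92 to 10.35 with a median of 10.08. LPS/HI lay wholly above LPS, and the other pairs of groups overlapped. Akap12 fell by 0.27 (SE 0.09) in LPS against Sham (limma adjusted p = 0.0396) and was 0.32 (SE 0.09) higher in LPS/HI than in Sham (adjusted p = 0.0271). LPS/HI stood 0.59 (SE 0.09) above LPS (adjusted p = 0.00794), the largest difference among the 37 genes in these comparisons, and this call held with each library left out in turn. LPS was 0.29 (SE 0.09) lower than NaCl/HI (adjusted p = 0.0478), and the interaction was 0.58 (SE 0.12, adjusted p = 0.0316). The call of LPS against NaCl/HI held with 8 of the 23 libraries left out in turn and was lost without a variance trend. The interaction of Akap12 held with 13 of the 23. Within the libraries numbered 1 to 12 the difference of LPS/HI from LPS was 0.37, and within the others 0.88. The mean of 13 measured mural markers was 8.60 ± 0.11 in Sham, 8.56 ± 0.10 in LPS, 8.77 ± 0.15 in NaCl/HI and 8.76 ± 0.09 in LPS/HI, and that of 8 fibroblast markers was 9.32 ± 0.10, 9.29 ± 0.12, 9.48 ± 0.12 and 9.56 ± 0.04, in the same order, with both lowest in LPS and higher in the HI groups. Their part in the Akap12 result was not tested.

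Cyyr1, a membrane protein of vessels, was at 9.08, 9.08, 9.20, 9.23 and 9.38 in LPS. The range was 9.17 to 9.61 in Sham (median 9.57), 9.04 to 9.30 in NaCl/HI (median 9.16) and 9.26 to 9.47 in LPS/HI (median 9.35). Sham reached above all other groups but overlapped each through its lowest replicates, 1 and 6. Cyyr1 fell by 0.28 (SE 0.08) in LPS against Sham (limma adjusted p = 0.0211), and its interaction was 0.48 (SE 0.11, adjusted p = 0.0431). The interaction of Cyyr1 was lost with the series of library numbers as a block (adjusted p = 0.0524 by limma) and without a variance trend, and it held with 5 of the 23 libraries left out in turn. The difference of NaCl/HI from Sham, -0.30, did not pass (adjusted p = 0.128). Rhoj, a small GTPase of vessel growth, was at 8.61, 8.83, 8.88, 9.04 and 9.14 in LPS. In Sham it lay between 8.88 and 9.23 (median 9.09), in NaCl/HI between 8.79 and 9.03 (median 8.87) and in LPS/HI between 8.98 and 9.53 (median 9.24). All groups overlapped, and Rhoj passed in no comparison, with 0.32 (SE 0.10) in LPS/HI against LPS (adjusted p = 0.0937) and 0.33 (SE 0.10) against NaCl/HI (adjusted p = 0.162).

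Rasip1, a Ras-interacting protein needed for vessel tubes, was at 9.60, 9.67, 9.72, 9.75 and 9.92 in LPS. Levels in the groups of 6 reached from 9.67 to 10.11 in Sham, 9.66 to 9.82 in NaCl/HI and 9.69 to 10.31 in LPS/HI, with medians of 9.88, 9.73 and 10.02. The LPS/HI samples overlapped every other group, and Rasip1 passed in no comparison (0.25 in LPS/HI against LPS, limma adjusted p = 0.162). Mcam, Rhoj and Rasip1 were named in the text of the study, and Akap12 was displayed there, as hubs of a co-expression module built from these same samples, so their high levels in LPS/HI are not independent evidence. Nos3, the endothelial nitric oxide synthase, Palmd and Myct1 passed in no comparison. Palmd was 0.18 lower in NaCl/HI than in Sham (adjusted p = 0.198) and 0.21 lower in NaCl/HI than in LPS/HI (adjusted p = 0.166), with no overlap of samples in either case.

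Related genes outside the 37 were read from 8 lists. Which cells of the isolates, microglia included, these genes came from was not tested. The counts of each list stand beside the shares of all genes that passed. These were 10.2% higher and 7.56% lower in LPS against Sham, 1.22% and 0.719% in LPS/HI against LPS, 5.3% and 3.48% in LPS/HI against Sham, 5.32% and 3.66% in LPS against NaCl/HI, 0.153% and 0.0493% in LPS/HI against NaCl/HI, and 0.365% and 0.719% in the interaction. Of 19 measured pan-endothelial genes, 9 fell and 1 rose in LPS against Sham, with a median of -0.21. Rasgrp3, an activator of Ras and Rap, fell by 0.69 (limma adjusted p = 1.63e-05), Exoc3l2 by 0.47 (adjusted p = 6.65e-05), the repressor Bcl6b by 0.46 (adjusted p = 0.00113) and Adgrl4 by 0.27 (adjusted p = 0.0139). Cd34, the only riser of the list and named here after its value was seen, was 0.29 higher (adjusted p = 0.0177). In LPS/HI against LPS, 4 rose and 0 fell: Ecscr by 0.53 (adjusted p = 0.00911), Rasgrp3 by 0.43 (adjusted p = 0.0169), Adgrl4 by 0.29 (adjusted p = 0.0458) and Fgd5 by 0.27 (adjusted p = 0.0476). In LPS/HI against Sham, Cd34 (0.40) and Ecscr (0.34) rose and Exoc3l2 (-0.30) fell. Rasgrp3 (-0.66) and Exoc3l2 (-0.32) were lower in LPS than in NaCl/HI, and Adgrl4 (0.47) and Ecscr (0.55) passed the interaction.

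Among 17 measured junction and transport genes of the barrier, the vesicle coat proteins Cav1 and Cavin2 fell by 0.42 and 0.31 in LPS against Sham (limma adjusted p = 0.00653 and 0.000449). Both rose in LPS/HI against LPS, by 0.45 and 0.27 (adjusted p = 0.0275 and 0.0158), together with Abcb1b at 0.41 (adjusted p = 0.0396). LPS against NaCl/HI showed the amino acid transporter Slc7a5 higher (0.18) and Cavin2 lower (-0.25), and Cavin2 passed the interaction (0.33). Of 12 partners of the VEGF, angiopoietin and apelin receptors, the co-receptor Nrp1 rose by 0.36 in LPS against Sham (adjusted p = 0.0141), and Flt4, Pdgfb and Vegfb fell by 0.28, 0.27 and 0.20 (adjusted p = 0.00787, 0.016 and 0.0188). Vegfa, the ligand of Kdr and Flt1, had differences from Sham of 0.24 in LPS, 0.39 in NaCl/HI and 0.37 in LPS/HI and did not pass (adjusted p = 0.246, 0.203 and 0.0829). In this list Angpt1 rose (0.27) and Vegfb fell (-0.18) in LPS/HI against Sham, and Vegfb (-0.21) and Plxnd1 (-0.42) were lower in LPS than in NaCl/HI.

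Of 14 genes of Wnt and Norrin signalling, which induces the barrier, 5 fell in LPS against Sham, including the receptors Adgra2 by 0.21, Lrp6 by 0.17 and Fzd4 by 0.24 and the factor Lef1 by 0.23 (limma adjusted p = 0.0107, 0.0136, 0.0211 and 0.0229). None of the 14 passed in LPS/HI against LPS, where 2 had an unadjusted p under 0.05, while Lrp6 fell in LPS/HI against Sham (-0.17) and Adgra2 was lower in LPS than in NaCl/HI (-0.18). Of 16 arterial, venous and Notch genes, Notch4 (-0.35) and Nr2f2 (-0.27) fell in LPS against Sham, Dll4 (0.42) rose in LPS/HI against LPS and Bmx (0.66) passed the interaction. Of 13 other endothelial transcription factors, Elk3, Sox7 and Ets1 fell in LPS against Sham by 0.25, 0.22 and 0.20, Mef2c fell in LPS/HI against Sham by 0.19, and Elk3 was lower in LPS than in NaCl/HI (-0.24).

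The vascular basement membrane, the matrix sheet shared by endothelial and mural cells, had 13 genes measured, of which 3 fell in LPS against Sham: Nid1 by 0.20, Nid2 by 0.26 and Sparc by 0.26 (limma adjusted p = 0.0156, 0.0188 and 0.0151). In LPS/HI against LPS 6 of the 13 rose. The smallest adjusted p were those of Nid1 (0.33), Lama4 (0.33), Lamc1 (0.27) and Lamb1 (0.29), at 0.00794, 0.00883, 0.0169 and 0.0268. The largest rises were in the collagens Col4a1 (0.42, adjusted p = 0.0301) and Col4a2 (0.39, adjusted p = 0.0385), named after their values were seen. In LPS/HI against Sham Lamc1 (0.21) and Col4a1 (0.30) rose, Nid1 was lower in LPS than in NaCl/HI (-0.25), and Lama4 passed the interaction (0.37). Of 10 genes of activated endothelium, 2 rose in LPS/HI against NaCl/HI, the comparison in which none of the 37 did: Selp, the P-selectin that captures leukocytes, by 1.33 (SE 0.27, adjusted p = 0.046) and the chemokine-binding Ackr1 by 0.61 (adjusted p = 0.046). Selp (1.37) and Ackr1 (0.41) also rose against Sham, and in LPS/HI against LPS Thbd (0.49), Edn1 (0.48), Selp (1.2) and Plat (0.30) rose. Selp is also made by megakaryocytes and platelets. Plat (-0.23) and Edn1 (-0.31) fell in LPS against Sham and passed the interaction (0.53 and 0.70), and Vcam1 (0.31) was higher and Thbd (-0.40) lower in LPS than in NaCl/HI. For NaCl/HI against Sham, limma called 0 genes of these 8 lists, where 23 of their list entries had an unadjusted p under 0.05.

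Within groups, the 37 genes varied together from sample to sample. After subtracting each group mean, the median Pearson r over 666 pairs of genes and 23 samples was 0.499 (Spearman coefficient 0.46), and 49.5% of pairs exceeded 0.5, against 5.68% of pairs of one of the 37 with any other gene. The samples share the authors' correction, and the values are a description with no test. The median was 0.615 over the 11 Sham and LPS samples and 0.448 over the 12 samples of the HI groups, and it ran from 0.434 without LPS/HI replicate 5 to 0.517 when each library was left out. Mcam and Rhoj were the closest pair (r = 0.958), although both, like Rasip1, were chosen by the study from correlations over these samples, and Mfsd2a and Tal1 the most opposed (r = -0.446). With the mean of the other 36 genes, Rasip1 (0.929), Esam (0.924) and Egfl7 (0.902) varied most closely. The transporters did not follow, with 0.084 for Mfsd2a, 0.105 for Abcb1a and 0.326 for Slco1c1, nor did Plvap (0.289).

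The same within-group deviations were set against the mean of other gene lists. The mean of the 37 genes varied with that of the 19 other pan-endothelial genes (Pearson r = 0.924, Spearman coefficient 0.874, and Pearson r = 0.889 without the 2 samples farthest from the median) and with that of the basement membrane (0.912, 0.921 and 0.880). It varied less with the barrier list (0.847), the arterial, venous and Notch list (0.849), the receptor partners (0.722), activated endothelium (0.564), other transcription factors (0.560) and Wnt signalling (0.538). With markers of other cells the values were 0.353 for 8 fibroblast, 0.232 for 13 mural, 0.308 for 6 choroid plexus and ependyma, 0.062 for 9 astrocyte and 0.048 for 7 erythrocyte markers. They were below 0 for 15 microglia (-0.224), 9 neuron (-0.209), 9 oligodendrocyte lineage (-0.300), 8 platelet and megakaryocyte (-0.101), 10 neutrophil (-0.105) and 8 border-associated macrophage markers (-0.313). Leaving out the 2 samples farthest from the median moved several of these values by over 1.5 times, to 0.378 for mural, -0.403 for neuron, -0.502 for border-associated macrophage, -0.078 for microglia, 0.234 for fibroblast, 0.194 for choroid plexus and ependyma, 0.127 for astrocyte, 0.276 for erythrocyte, -0.163 for platelet and megakaryocyte and 0.049 for neutrophil markers.

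**Figure D4:**
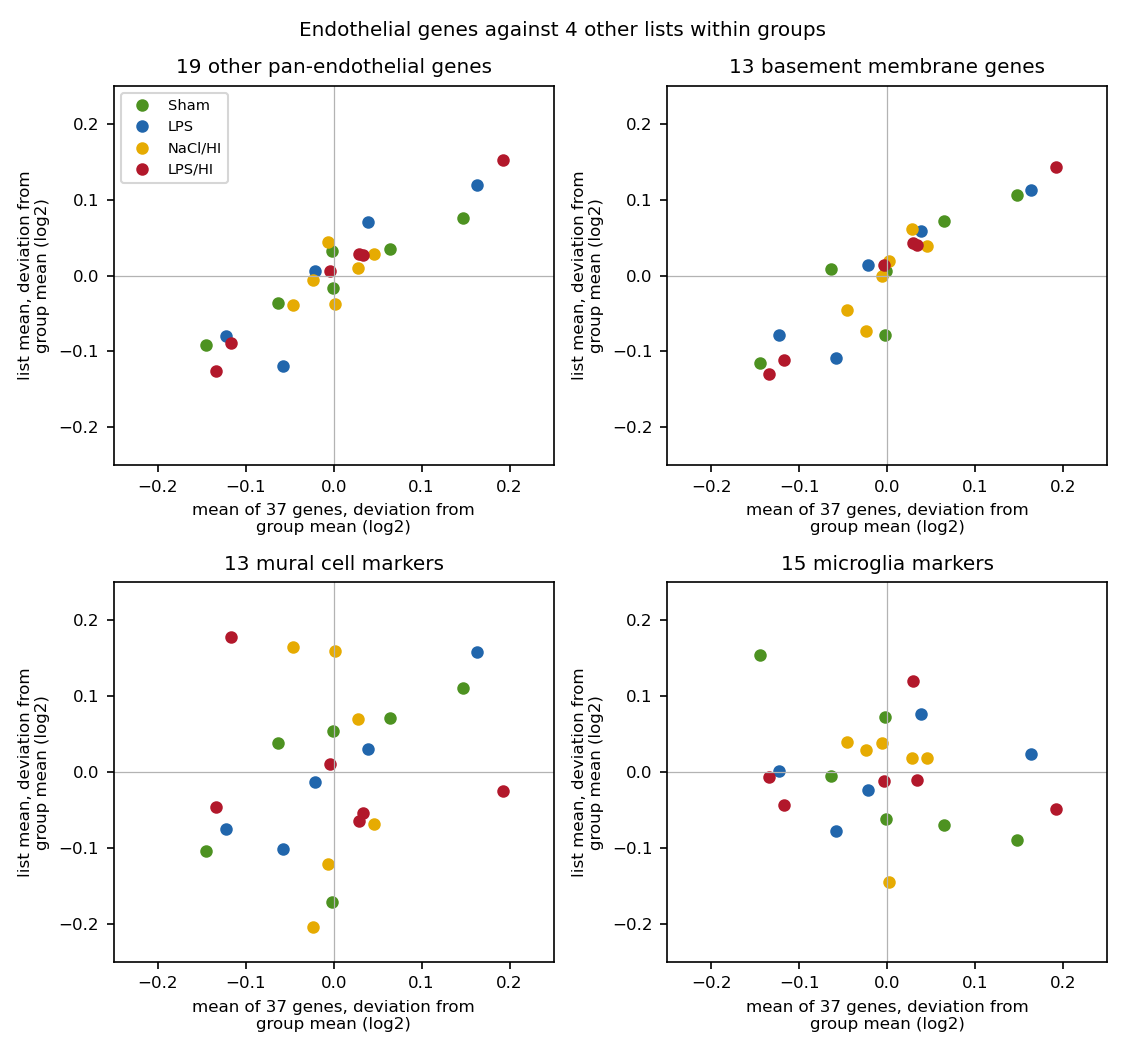
Deviation from the group mean of the average of the 37 genes (x axis, log2) against that of 4 other gene lists (y axis, log2), with 1 point per sample coloured by group. The points follow a line for other pan-endothelial genes (r = 0.924) and basement membrane genes (r = 0.912) and scatter for mural (0.232) and microglia markers (-0.224).

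Between groups, the levels of other cell types moved as follows beside these genes. The endothelial markers were lowest in LPS, as were the means of 9 of the 11 marker lists of other cells, all but astrocytes and choroid plexus with ependyma. Among them were neuron markers (7.30 ± 0.09 in Sham, 7.04 ± 0.10 in LPS, 7.25 ± 0.10 in NaCl/HI and 7.11 ± 0.09 in LPS/HI), border-associated macrophage markers (11.26 ± 0.24, 10.96 ± 0.10, 11.16 ± 0.19 and 11.12 ± 0.10) and erythrocyte markers (6.81 ± 0.38, 6.42 ± 0.22, 6.65 ± 0.30 and 6.71 ± 0.31). In LPS against Sham 6 of 9 neuron markers fell and 0 rose, and of 15 microglia markers 6 fell and 3 rose. Over all genes 7.56% fell and 10.2% rose. Mural markers were at 8.60 ± 0.11 in Sham and 8.56 ± 0.10 in LPS, and fibroblast markers at 9.32 ± 0.10 and 9.29 ± 0.12. In LPS/HI, neutrophil markers were highest (7.73 ± 0.17, 7.53 ± 0.22, 7.68 ± 0.27 and 8.17 ± 0.42), and 4 of 8 fibroblast, 3 of 13 mural and 4 of 10 neutrophil markers rose against Sham with 0 falling in each, beside 5.3% of all genes higher and 3.48% lower. Against LPS, the fibroblast markers Dcn (0.53), Col1a2 (0.43) and Col3a1 (0.37) rose in LPS/HI. So did the mural markers Kcnj8 (0.28) and Abcc9 (0.26) and the neutrophil marker Mmp9 (0.91). No other gene of these lists passed there, beside 1.22% of all genes higher and 0.719% lower. Astrocyte markers were at 10.08 ± 0.16, 10.26 ± 0.14, 10.19 ± 0.25 and 10.32 ± 0.11, and oligodendrocyte lineage markers at 8.72 ± 0.38, 8.47 ± 0.16, 8.90 ± 0.59 and 8.72 ± 0.19, in the same order of groups. How far the number of endothelial cells, or of any of these cells, in the isolates accounts for the levels of the 37 genes was not tested.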

How the data were processed

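RNA from CD11b/c-isolated cells was sequenced by the authors, and transcripts were quantified with kallisto 0.48.0 on mRatBN7.2 and imported into DESeq2. Genes under 10 counts in all samples were excluded. The deposited values are log2 values from the regularized logarithm, from which the authors removed 3 surrogate variables. Since no counts were used, sequencing depth is unknown here and counting error cannot be stated. Removed variation makes the spread between samples smaller than in the raw data.

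Groups were taken from the sample labels. All 23 samples and 20301 genes were fitted with limma 3.58.1 in R 4.3.3, with a variance trend and 16 instead of 19 residual degrees of freedom for the removed variables. P-values were adjusted by Benjamini-Hochberg, and adjusted p under 0.05 was a call. The script was tested on simulated data. Figures and descriptions used Python 3.11.15, pandas 2.3.3 and matplotlib 3.10.9.

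The 37 genes and all lists were chosen with earlier results of these data known. Full values are given for the called genes, at most 16 by smallest adjusted p, for Mcam, Rhoj, Rasip1 and Akap12, and for Cdh5, Pecam1 and Mfsd2a. Of related lists, at most 4 called genes per comparison are named, with Vegfa, and Cd34, Col4a1 and Col4a2 were added after their values were seen. Alternatives were other degrees of freedom, sample weights, no variance trend, median centring, quantile normalization, thresholds, the replicate block, the series of library numbers as a block, the groups compared alone, rank tests and each library left out.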

Additional observations from a re-analysis of the deposited data

Results flagged for a closer look

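Single samples stood far from the rest of their group, by Dixon's criterion, in 3 of 152 combinations of a gene (or the mean of all genes) and a group, where chance gives about 1 in 20. Kdr was at 11.15 in Sham replicate 1, below the next sample at 11.46. Adgrf5 was at 11.55 in LPS/HI replicate 5, above the next at 11.42. Nos3, the endothelial nitric oxide synthase, was at 9.86 in NaCl/HI replicate 3, below the next at 10.03.

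The LPS difference with HI (LPS/HI against NaCl/HI) and without HI (LPS against Sham) differed by the interaction in limma for 6 genes. The interaction was 0.38 for Flt1, 0.42 for Adgrf5, 0.42 for Podxl, 0.39 for Abcb1a, 0.58 for Akap12 and 0.48 for Cyyr1, on the log2 scale. Tissue differs between the groups with and without HI, and its part in these values cannot be told apart from that of HI. No injection is described for Sham, so the part of the injection cannot be told apart from that of LPS without HI.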

How the results depend on the processing

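No call among the 37 genes changed direction under any alternative. With other degrees of freedom, no variance trend, the groups compared alone or rank tests, the direction could not change. These alternatives keep the differences of the main fit. Under the alternatives run for them, the median differences moved by less than 0.0957, the pooled SD of the mean level within groups. This bound is larger in size than the medians of LPS/HI against Sham (0.08) and of LPS against NaCl/HI (-0.07). For these medians the check therefore carries little information. The median correlation of the 37 genes lay between 0.434 and 0.517 with each library left out. Within the 2 series of library numbers, by contrast, the median of LPS/HI against LPS was 0.06 and 0.41, that of the interaction 0.20 and 0.50, and that of LPS/HI against Sham -0.03 and 0.15. Counts of called genes did move, and the causes were not tested. With each library left out in turn, LPS against Sham ran from 4 to 12 calls, LPS/HI against Sham from 2 to 7, LPS/HI against LPS from 3 to 10, LPS against NaCl/HI from 1 to 5 and the interaction from 1 to 8, while NaCl/HI against Sham ran from 0 to 2 and LPS/HI against NaCl/HI from 0 to 5. The upper counts of 10 and 8 are not set against the share of all genes in their refits and are no result about the 37. With 19 residual degrees of freedom, the interaction had 14 calls (3.28% of all genes), LPS/HI had 13 against LPS (4.96%) and 5 against NaCl/HI (1.2%), and NaCl/HI had 1 against Sham (0.729%). With array weights, which did not fully converge, the interaction had 26 calls (10.9% of all genes), LPS/HI had 26 against LPS (20%), 23 against NaCl/HI (14.4%) and 16 against Sham (42.2%, near the share of the 37), and NaCl/HI had 3 against Sham (3.21%). With only the groups compared in the fit, LPS had 5 calls against Sham and 0 against NaCl/HI, and LPS/HI had 3 against Sham and 0 against LPS. Exact Wilcoxon tests gave LPS 4 calls against Sham (beside at least 2818 of all genes) and 0 against NaCl/HI, and LPS/HI 0 against LPS. In the last 2, 1483 and 846 genes reached the smallest p of 0.00433, at which 1758 would be needed. No gene changed by more than 2-fold (0 in the 5 comparisons with calls), and by more than 1.5-fold 1 did in LPS/HI against LPS and 0 in the other 4. At adjusted p under 0.1 the interaction had 13 calls (2.74% of all genes), and LPS/HI had 13 against LPS (4.56%) and 3 against NaCl/HI (0.724%). Without a variance trend, 3 genes passed the interaction (0.699% of all genes) and 3 differed between LPS and NaCl/HI (8.98%). With the series of library numbers as a block, Cyyr1 and Podxl lost the interaction. Quantile normalization ended the calls of Pecam1 in LPS against Sham (limma adjusted p = 0.0633) and Icam2 in LPS/HI against Sham (adjusted p = 0.058), and median centring that of Tal1 in LPS against NaCl/HI (adjusted p = 0.0501). Without the 25% of genes with the lowest mean, 1 gene differed between the HI groups.

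Same-numbered samples did not pair: 9 of 33 pairs had a correlation of deviations above 0.1, in a range from -0.475 to 0.47, and 3 of 23 samples correlated best with their own number. With the replicate block, LPS had 6 calls against Sham and 1 against NaCl/HI, LPS/HI had 2 against Sham and 4 against LPS, and the interaction had 0. Over all genes the block gave, in that order, 2282, 1083, 751, 89 and 2 calls, against 3606, 1824, 1781, 394 and 220 without it. Array weights gave 8566 calls over all genes in LPS/HI against Sham, and fits of the compared groups alone gave LPS 2337 calls against Sham and LPS/HI 1024 against Sham and 0 against LPS.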
